A study of Mus musculus with 4 samples.

Results

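ETn (early transposon) and MusD elements are retrotransposons of the mouse genome, and in the deposited counts they are covered by 5 repeat rows out of 49382 named rows for genes and repeats. The rows were taken by name: every repeat row whose name contains ETn or RLTRETN. These are MMETn-int, ETnERV-int, ETnERV2-int and ETnERV3-int, which cover internal sequence between the LTRs, and RLTRETN_Mm, which covers the long terminal repeat (LTR). The group was chosen by its measured response to genistein, because 3 of these rows lie among the minority of repeats that were lower after treatment. The differences between treated and untreated cells are therefore a description of these 5 rows, with no test. All 5 rows carry the family label ERVK (class LTR), which holds 276 rows in the table.

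An ETn or MusD element is an endogenous retrovirus, a former virus that became part of the germ line and is copied through an RNA. MusD elements carry the retroviral genes gag, pro and pol but no env, so that they move within the cell and do not spread as virus. ETn elements have lost these genes, and their RNA is copied by the proteins of MusD. Both have LTRs that hold the promoter and the polyadenylation signal. Their transcripts are best known from early mouse embryos, embryonic stem cells and embryonal carcinoma cells, and their new insertions are a known source of mutations in inbred mice. In most somatic cells they are kept silent by DNA methylation and by histone methylation brought in through KRAB zinc finger proteins. The row names do not state which copies are ETn and which are MusD, so the rows are called by their names here. A row sums all copies of a subfamily across the genome and has no single coordinate.

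Total RNA was sequenced from mouse embryonic fibroblasts (MEF cells), which are connective tissue cells cultured from embryos. The untreated group, labelled wild-type, and the genistein group, kept in 50 µM genistein for 24 h, had 2 libraries each. Genistein is a plant isoflavone that acts on tyrosine kinases and on DNA topoisomerase II. For the treated cells the labels give the treatment in place of a genotype, and they do not say whether untreated cells received solvent or whether the 2 libraries of a group came from separate cultures. P-values then measure only the spread between these libraries.

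Total counts per library lay from 28591958 to 31464284, and repeats took 11.97% to 14.6% of them. Of the 10 fibroblast markers, 8 passed the filter on low counts, and their list summed to 13874 to 14321 CPM (counts scaled to the library total) in untreated cells and to 13767 to 13836 CPM in treated cells, with collagen, fibronectin and vimentin genes leading. The fibroblast marker Thy1 was at 0 in all libraries. The 8 pluripotent stem cell markers, whose cells are known for ETn transcripts, summed to only 1.35 and 1.43 CPM in untreated and to 1.84 and 2.24 CPM in treated cells, with Sox2, Zfp42 and Dppa3 at 0. Epithelial markers (4 genes) went from 14.7 to 15.1 CPM down to 4.51 to 4.64 CPM, mostly Krt8, with Epcam at 0. Endothelial markers (4 genes, with 1 read of Cdh5 over the 4 libraries) went from 0.813 to 1.00 up to 2.89 to 3.36 CPM. Leukocyte markers (4 genes) went from 6.26 to 6.83 up to 18.5 to 19.7 CPM. Nearly all of this was Csf1r and Cd68, with Adgre1 at 0 and Ptprc at 1 read in untreated 1 and 1 in genistein 2. The part of these markers in the results was not tested. In bulk RNA, fewer cells with a transcript and less transcript per cell cannot be told apart.

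The family split after genistein. MMETn-int, ETnERV-int and RLTRETN_Mm were all about 2.4- to 2.9-fold lower in the treated libraries, ETnERV2-int was 2.30-fold higher, and ETnERV3-int differed little. These folds depend on the scaling: with repeats fitted alone, the lower rows were 3.92- to 4.72-fold lower, ETnERV2-int was 1.42-fold higher and the sign of ETnERV3-int reversed. Values below are normalised read counts, that is, counts brought to a common effective library size. They measure a level relative to the rest of the RNA in a library. With 2 libraries a group, both treated libraries can lie to the same side of both untreated ones by chance. The share of all rows that do so was not computed, so nothing is read from such a separation. Fold changes are from the edgeR fit over all genes and repeats.

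MMETn-int, an internal row, had the most reads of the 5. Its normalised count was 17793 in untreated 1 and 17795 in untreated 2, against 5882 in genistein 1 and 6329 in genistein 2. Both treated libraries lay far below both untreated libraries. The means were 17794 ± 0.824 and 6106 ± 316 (SD, n = 2), and the untreated pair was closer than read counting alone would usually give, so its SD is too small as an error. On the log2 scale the difference was -1.54 (standard error, SE, 0.05), a 2.91-fold lower level. Of the 1118 repeats that passed the filter, none had a lower log2 fold change, a place that the choice of the group favours.

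ETnERV-int, another internal row, stood at 5339 and 5229 normalised counts without genistein and at 2134 and 2218 with it. Both treated libraries were lower, and the libraries within a group lay within a few percent of each other. The means were 5284 ± 78.1 and 2176 ± 59.0 (SD, n = 2), with a log2 fold change of -1.28 (SE 0.04), or 2.43-fold lower.

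RLTRETN_Mm is the LTR row, and an LTR is present at both ends of a full element as well as alone at sites where the internal part was lost. Its normalised counts were 1349 and 1541 in untreated and 578 and 613 in treated libraries. The treated libraries were again the lower pair, with a wider spread among the untreated ones. The means were 1445 ± 136 and 596 ± 25.3 (SD, n = 2), with a log2 fold change of -1.28 (SE 0.07), or 2.43-fold lower, the same size as for ETnERV-int.

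ETnERV2-int went the other way. Its normalised counts were 162 and 206 in untreated libraries and 399 and 447 in treated libraries, so that the treated pair was higher. The means were 184 ± 31.5 and 423 ± 34.6 (SD, n = 2), with a log2 fold change of 1.20 (SE 0.11). The raw counts behind it, 162, 195, 425 and 442, are few beside those of the rows above.

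ETnERV3-int had the fewest reads. Its normalised counts were 133 and 163 in untreated libraries and 178 and 166 in treated libraries. The treated pair lay above the untreated pair, but untreated 2 and genistein 2 almost met. The means were 148 ± 21.3 and 172 ± 8.60 (SD, n = 2), and the log2 fold change of 0.22 (SE 0.13) was smaller than 2 SE. With repeats fitted alone it was -0.47.

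**Figure D1:**
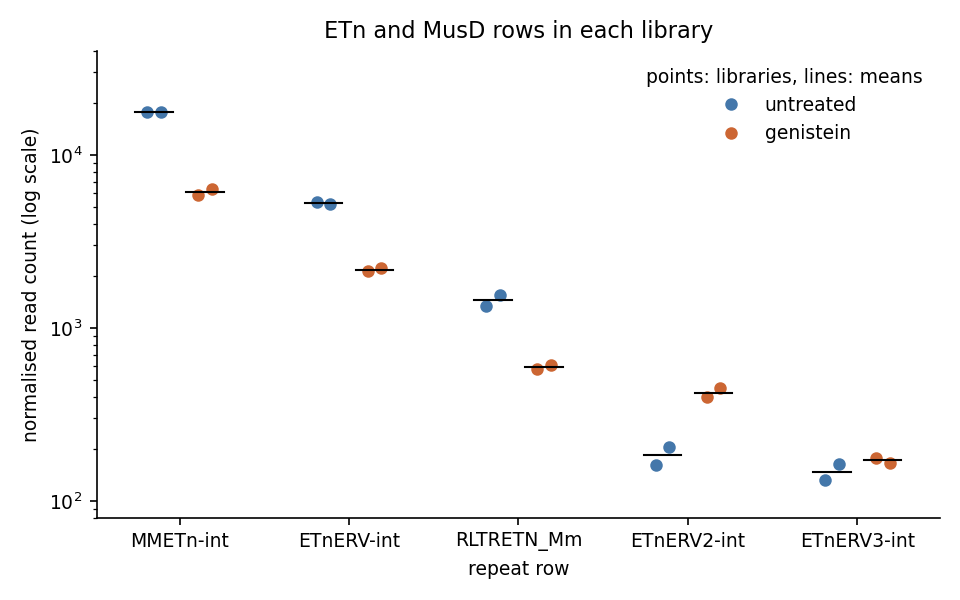
Normalised read count (log axis) of each of the 5 ETn and MusD rows, with 1 point per library and a line at each group mean (untreated and genistein, n = 2 each). MMETn-int, ETnERV-int and RLTRETN_Mm sit lower in both treated libraries, ETnERV2-int sits higher, and the 2 groups of ETnERV3-int lie close together (its sign reverses with repeats fitted alone).

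Against the study's thresholds (adjusted p under 0.05, absolute log2 fold change over 1 and mean normalised count over 100), 3 of the 5 rows were lower and 1, ETnERV2-int, was higher. With repeats fitted alone ETnERV2-int was at 0.51 and no longer past the fold threshold. Over all 1118 repeats, 4 (0.358%) were lower and 41 (3.67%) were higher. The fourth lower repeat was 7SLRNA, the RNA of the signal recognition particle, at -1.04. Because the rows were chosen from this contrast, nothing is read from these shares. RLTRETN_Mm and ETnERV-int were the passing rows nearest to the fold threshold on the lower side (both -1.28), ETnERV2-int was at 1.20 on the higher side, and ETnERV3-int was well inside it at 0.22.

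The 5 rows share sequence, since ETn and MusD have closely related LTRs and flanking internal parts, and a read can fit several rows. How the counting program treated such reads is not given in the sources used here, so the rows are not independent measurements. Where such reads were divided among rows, the sum of the 5 does not depend on the division within the group. The sum was 24776 and 24934 normalised counts in untreated libraries and 9171 and 9774 in treated libraries. Both treated values were far below both untreated values, with means of 24855 ± 112 and 9472 ± 426 (SD, n = 2) and a log2 fold change of -1.39 (SE 0.05), or 2.62-fold lower. The 3 lower rows together had means of 24523 and 8877, a difference of -15646 normalised counts, and ETnERV2-int and ETnERV3-int together had means of 332 and 595, a difference of 263. The difference in the 2 small rows was thus minor beside that in the others.

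Counts within a library were then compared with one another, which needs no scaling between libraries. The 5 rows made up 19.5% and 18.9% of the ERVK read counts in untreated libraries and 5.85% and 6.41% in treated libraries. Of the LTR class read counts they made up 6.74% and 6.42% in untreated and 1.58% and 1.73% in treated libraries. The totals were themselves larger in treated libraries. ERVK reads were 126957 and 124694 in untreated and 167174 and 150698 in treated libraries. LTR class reads were 368241 and 366895, then 619553 and 557416. These shares therefore also hold the higher counts of other LTR rows and do not give the size of the fall of the group. Of all repeat reads they made up 0.674% and 0.651%, then 0.212% and 0.249%. That total also holds structural RNA rows such as 7SLRNA, which was itself lower in treated libraries, so it is no total of transposons. The 95% Wilson intervals of the ERVK shares reached at most 0.218 percentage points to either side. They cover counting error only, not the spread between libraries, and give no test of the gap between the groups. Rows differ in length and copy number, for which no value is given in the counts, so these shares compare reads and not levels per length.

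Within the group, MMETn-int took 71.8% and 71.4% of the reads in untreated and 64.1% and 64.8% in treated libraries. ETnERV-int took 21.6% and 21.0%, then 23.3% and 22.7%. ETnERV2-int went from 0.653% and 0.828% to 4.35% and 4.58%. The makeup of the group thus moved away from MMETn-int, mostly towards the 2 small internal rows.

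Ratios between single rows showed which of them moved together. Reads of ETnERV-int per read of RLTRETN_Mm were 3.96 and 3.39 in untreated and 3.69 and 3.62 in treated libraries, so that the treated values fell between the untreated ones. Reads of MMETn-int per read of ETnERV-int were 3.33 and 3.40, then 2.76 and 2.85. This ratio was lower in both treated libraries, as MMETn-int lost a larger part of its reads. Reads of ETnERV-int per read of ETnERV2-int went from 33.0 and 25.3 to 5.36 and 4.96, the widest separation among the pairs that include ETnERV-int.

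**Figure D2:**
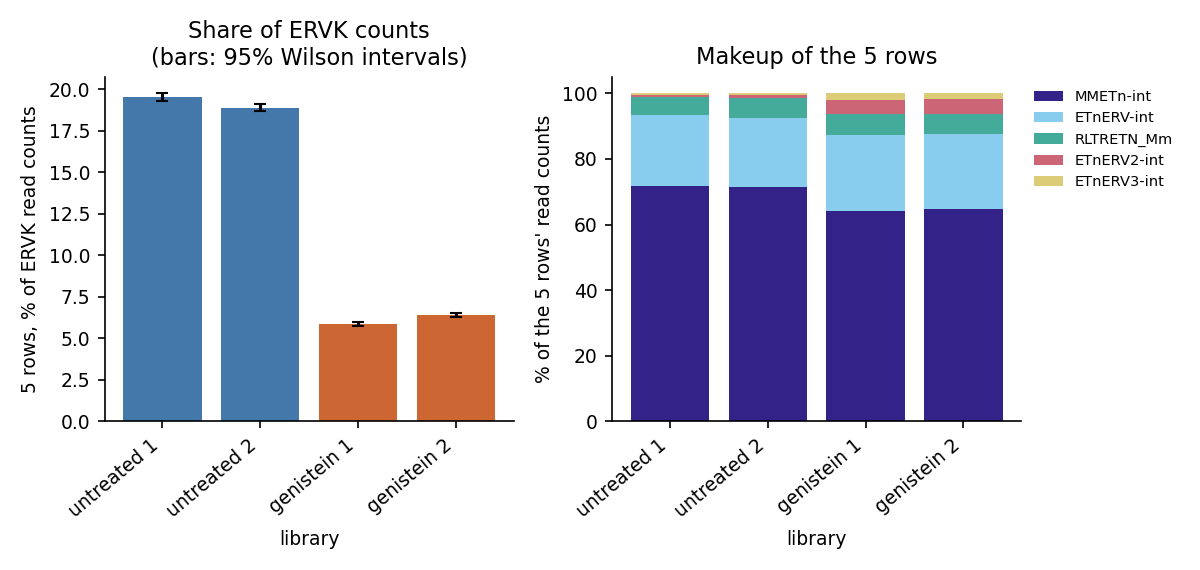
Left, the 5 ETn and MusD rows as a percent of ERVK read counts in each library, with 95% Wilson intervals (counting error only). Right, the percent of the group's reads in each row. The share of ERVK counts was 19.5% and 18.9% in untreated and 5.85% and 6.41% in treated libraries, and the band of ETnERV2-int widens in the treated ones. The ERVK total was itself larger in treated libraries.

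Where the rows stood among their relatives was described next. ERVK is the family label of betaretrovirus-like elements, which also takes in the intracisternal A particles (IAP). The 248 ERVK rows outside the group that passed the filter lay at a median of 0.57 on the log2 scale, 231 above 0 and 17 below. Their lowest value was -0.56, so MMETn-int, ETnERV-int and RLTRETN_Mm all lay beneath every one of them. As the group was chosen for its fall in this contrast, this place only describes the chosen rows. ETnERV2-int, at 1.20, ranked 10 of 253 ERVK rows from the top, and 80 of all 1118 repeats. ETnERV3-int, at 0.22, ranked 212 of 253 and lay below the lower quartile of the other ERVK rows (0.37).

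The 3 lower rows also lay below every row of the other LTR families, again no more than a description of rows chosen for their fall. The median was 0.61 over 91 ERV1 rows, 0.76 over 81 ERVL rows and 0.73 over 90 ERVL-MaLR rows, and their lowest values were -0.48, -0.21 and -0.49. Over all 1118 repeats the median was 0.69 and over all 16240 genes it was -0.03. With repeats fitted alone the median repeat lay at -0.01, so directions of single families hold relative to genes. The median of the 5 rows was -1.28, with 2 above 0 (ETnERV3-int was below 0 with repeats fitted alone) and 3 below.

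**Figure D3:**
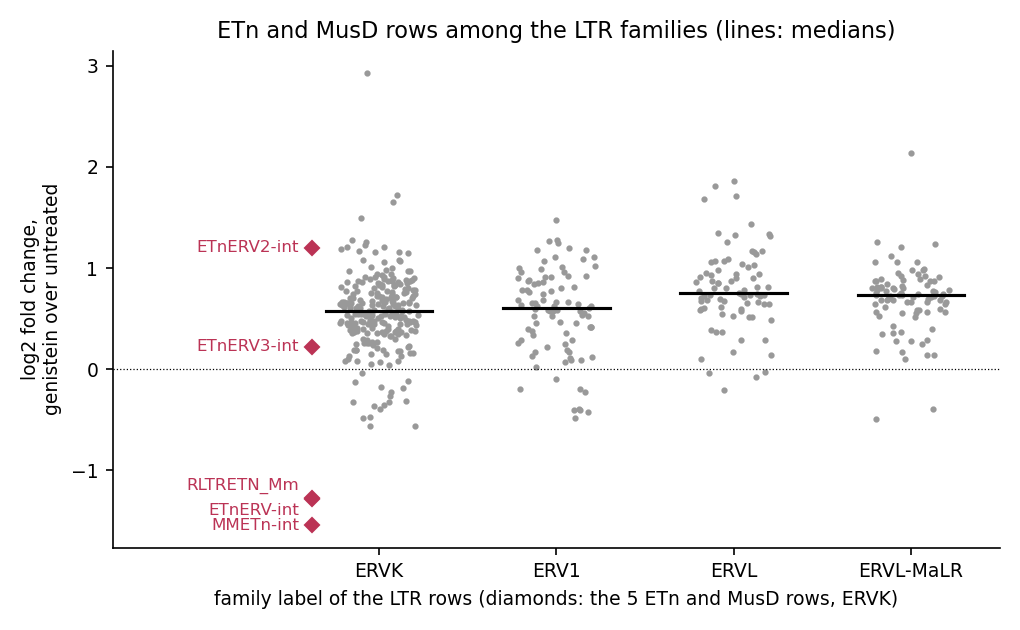
Log2 fold change (genistein over untreated) of each LTR repeat row that passed the filter, by family label, with a line at each family's median over grey points. The 5 ETn and MusD rows are drawn as diamonds: MMETn-int (-1.54), ETnERV-int (-1.28) and RLTRETN_Mm (-1.28) lie below all grey points, while ETnERV2-int (1.20) and ETnERV3-int (0.22) lie within the range of the ERVK points (ETnERV3-int turns to -0.47 with repeats fitted alone). The group was chosen by this response.

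Among internal ERVK rows outside the group, the 3 with the highest untreated counts were IAPEY4_I-int, IAPEz-int and MYSERV6-int. IAP elements are, like ETn and MusD, a known source of new insertions in mice. IAPEz-int had 12799 and 13070 normalised counts in untreated libraries and 16322 and 16594 in treated libraries, higher in both treated ones (log2 fold change 0.35, SE 0.05; Benjamini-Hochberg adjusted p = 3.95e-06 by the quasi-likelihood test of edgeR). IAPEY4_I-int and MYSERV6-int rose as well, by 0.33 and 0.46 on the log2 scale. All 3 directions reversed with repeats fitted alone, to -0.35 for IAPEz-int, -0.37 for IAPEY4_I-int and -0.23 for MYSERV6-int, since these rows moved less than the median repeat. The ERVK rows outside the group that passed the study's thresholds were ERVB3_1-I_MM, MLTR31D_MM, RLTR10A, RLTR20A, RLTR45-int and RMER17C-int, and these 6 were all higher, at 1.08 to 2.92. With repeats fitted alone, 1 of the 6 remained over the fold threshold. The top value, of RLTR45-int, rested on genistein 1, with 896 normalised counts there and 136 in genistein 2. With genistein 1 left out it was 0.98, under the fold threshold. RLTR10A also came under the threshold without genistein 1 (0.92) or untreated 2 (0.995), and MLTR31D_MM without untreated 1 (0.91).

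The family total was summed with and without the group. Because the group was chosen for its fall, leaving it out raises the log2 fold change by construction, and nothing is read from that step. All 276 ERVK rows summed to 126824 and 132013 normalised counts in untreated and to 156759 and 152535 in treated libraries, a log2 fold change of 0.26 (SE 0.04). Without the 5 rows the sums were 102048 and 107078, then 147589 and 142761, and the log2 fold change was 0.47 (SE 0.04). The other ERVK rows differed by 40612 normalised counts and the 5 rows by -15383. The ERVK totals with and without the group were not refitted with repeats alone. That setting moved the median repeat from 0.69 to -0.01, so the direction of these totals is given relative to genes only.

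The repeats most like the group in pattern were sought over the 4 libraries by the root mean square difference of log2(normalised count + 1), each row centred on its own mean. The nearest of 597 repeats with a mean over 100 was 7SLRNA, at 0.185, with 1444380 and 1541990 normalised counts in untreated and 737600 and 713396 in treated libraries. It was followed by B2_Mm1a, a SINE, at 0.368, 7SK, a nuclear RNA that holds back transcription elongation, at 0.371, ERVB4_1B-I_MM at 0.429 and MuLV-int, a murine leukaemia virus row, at 0.459. Their own log2 fold changes were -1.04, -0.66, -0.66, -0.56 and -0.48, all smaller than the -1.39 of the sum.

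Nearer patterns were found among 11642 genes. The nearest was Gnl3, for a nucleolar GTP-binding protein, with 4679 and 4619 normalised counts in untreated and 1733 and 1827 in treated libraries (log2 fold change -1.39, difference 0.0118). Tbl3, for a small-subunit processome protein, followed at 0.0181, Rrp15, for a ribosomal RNA processing protein, at 0.0204, Tm4sf1, for a membrane protein, at 0.0234 and Hmgcs1, for an enzyme of cholesterol synthesis, at 0.0236. With 4 libraries in 2 tight groups, this likeness is mainly a likeness of the fold change.

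Host genes known to act on ETn, MusD or related elements were compared between the groups, to show what else moved in the cells in which these rows were lower. Of 42 listed genes, all passed the filter, and 5 rose and 26 fell at an adjusted p under 0.05 (edgeR's quasi-likelihood test, adjusted over all 17358 genes and repeats). Over all genes, 33.5% rose and 38.2% fell, and the median log2 fold change was -0.03 against -0.27 over the list. In the paper, the same dose and time shifted most MEF cells to the G2/M phase of the cell cycle. The part of this shift in the changes of the listed genes was not tested.

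The silencing list holds the KRAB co-repressor, its methyltransferase, the HUSH complex, HP1 proteins, chromatin assembly and DNA methylation. Of its 27 genes, 20 fell, 3 rose and 4 did not pass, with a median of -0.38. Trim28 (chromosome 7, 12999114 to 13031035), the co-repressor that KRAB zinc finger proteins recruit, fell from 12023 and 11626 normalised counts to 6178 and 6024 (log2 fold change -0.95, SE 0.04; adjusted p = 6.9e-12, edgeR). Both treated libraries held about 1.94-fold less. Setdb1 (chromosome 3, 95323525 to 95357202), the histone H3 lysine 9 methyltransferase that works with it, had 2797 and 2822 normalised counts in untreated and 2694 and 2641 in treated libraries. It did not pass (-0.07, SE 0.04; adjusted p = 0.0718, edgeR), though it did with RLE size factors (adjusted p = 0.0494) or when low rows were not filtered (0.0313), both by edgeR.

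Atf7ip (chromosome 6, 136506167 to 136610862), the partner that stabilises SETDB1, rose from 1480 and 1605 to 3080 and 2940 normalised counts (log2 fold change 0.97, SE 0.04; adjusted p = 1.15e-11, edgeR). Resf1, another SETDB1 partner, rose by 0.34. Dnmt3a, a de novo DNA methyltransferase, rose by 0.11 (adjusted p = 0.0286, edgeR), but this was lost without untreated 1 (adjusted p = 0.0942), untreated 2 (0.0595) or genistein 2 (0.121), and with DESeq2 (0.203) or no filter (0.14).

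The genes of DNA methylation maintenance fell. Dnmt1 (chromosome 9, 20907209 to 20959888), the maintenance methyltransferase, had 9148 and 9095 normalised counts in untreated and 6266 and 6064 in treated libraries (log2 fold change -0.57, SE 0.04; adjusted p = 1.36e-09, edgeR). Uhrf1 (chromosome 17, 56303321 to 56323486), which brings it to newly copied DNA, fell by 0.69. Dnmt3b (chromosome 2, 153649450 to 153687730), the other de novo enzyme, fell from 241 and 256 to 118 and 105 normalised counts, a log2 fold change of -1.15 (SE 0.12). Chaf1b, a subunit of chromatin assembly factor 1, fell by 0.85.

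The restriction list holds genes that act on the RNA, the reverse transcripts or the particles of retroelements. Of its 11 genes, 2 rose, 4 fell and 5 did not pass, with a median of -0.13. Over all genes 33.5% rose and 38.2% fell, so nothing is read from the count that fell. Apobec3 (chromosome 15, 79891659 to 79915906), a cytidine deaminase known to restrict ETn and MusD retrotransposition, rose from 759 and 784 to 1063 and 976 normalised counts (log2 fold change 0.40, SE 0.06; adjusted p = 1.55e-05, edgeR). Both treated libraries were higher. Rnaseh2b and Rnaseh2a, subunits of ribonuclease H2, fell, with log2 fold changes of -0.52 and -0.49. Zc3hav1, an antiviral RNA-binding protein named after its values were seen, fell by 0.12 (adjusted p = 0.00642, edgeR) and Samhd1, which depletes nucleotides, fell by 0.14 (adjusted p = 0.0111, edgeR). The call of Zc3hav1 was lost without genistein 1 (adjusted p = 0.0687), with TMM factors from genes alone (0.0654) and with library totals (0.316). The call of Samhd1 was lost without genistein 2 (adjusted p = 0.213), with TMM factors from genes alone (0.0669) and with library totals (0.166).

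The last list holds transcription factors that act on the ETn LTR and KRAB zinc finger proteins that bind ERVK elements. Sp1 (chromosome 15, 102406143 to 102436404) had 4966 and 5205 normalised counts in untreated and 4011 and 3931 in treated libraries, a fall of 0.36 on the log2 scale (SE 0.03; adjusted p = 9.7e-08, edgeR). Sp3 (chromosome 2, 72936427 to 72980446) fell by 0.24. Zfp932 (chromosome 5, 109996521 to 110010411) and its neighbour Gm15446 (chromosome 5, 109923400 to 109943936) did not pass, with log2 fold changes of 0.02 (SE 0.07) and -0.14 (SE 0.09). These are paralogs with similar sequence, so reads may be shared between them. Whether any of these genes acts on the 5 rows in these cells was not tested.

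**Figure D4:**
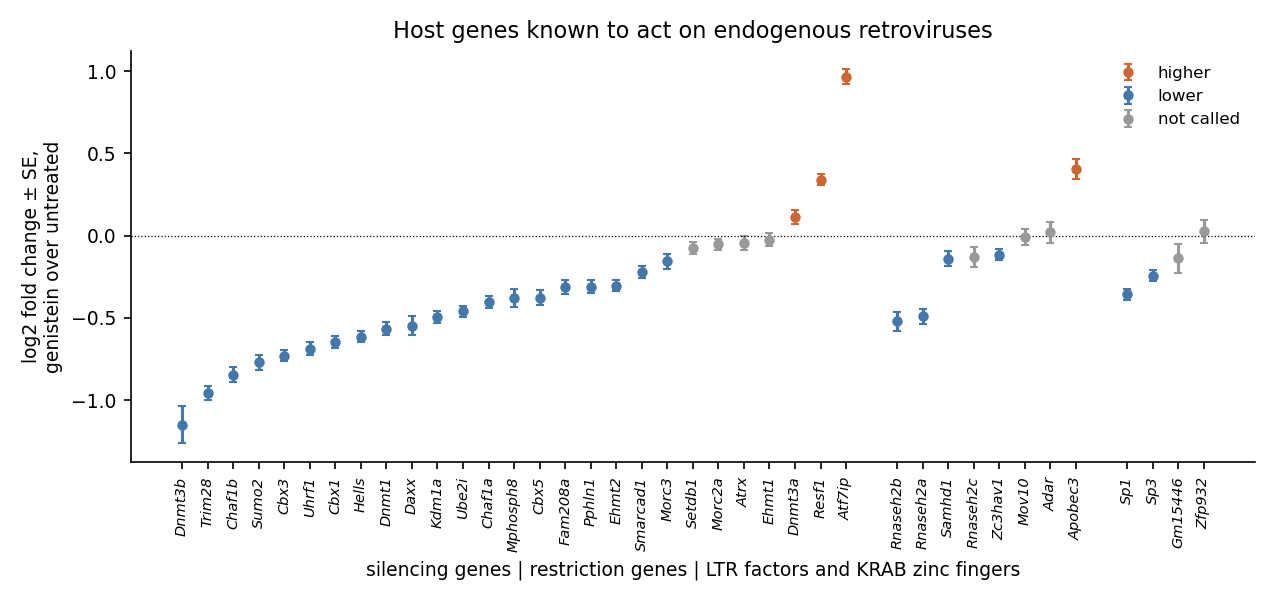
Log2 fold change (genistein over untreated, with SE bars) of the 39 host genes in the 3 lists with a mean normalised count over 100, coloured by whether the gene rose, fell or was not called at an adjusted p under 0.05 (edgeR). Most silencing genes lie below 0, from Dnmt3b (-1.15) and Trim28 (-0.95) upward, with Atf7ip (0.97) the highest of that list.

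The values of the 5 rows were recomputed under other processing. MMETn-int, ETnERV-int and RLTRETN_Mm were lower and ETnERV2-int was higher under all 11 alternatives. MMETn-int lay from -2.24 to -1.47, ETnERV-int from -1.98 to -1.21, RLTRETN_Mm from -1.97 to -1.18 and ETnERV2-int from 0.51 to 1.38 on the log2 scale. The far ends of the lower rows, and the 0.51 of ETnERV2-int, came from repeats fitted alone, which sets the middle of the repeats near 0. ETnERV3-int lay from -0.47 to 0.37, and its sign depended on this choice.

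**Figure D5:**
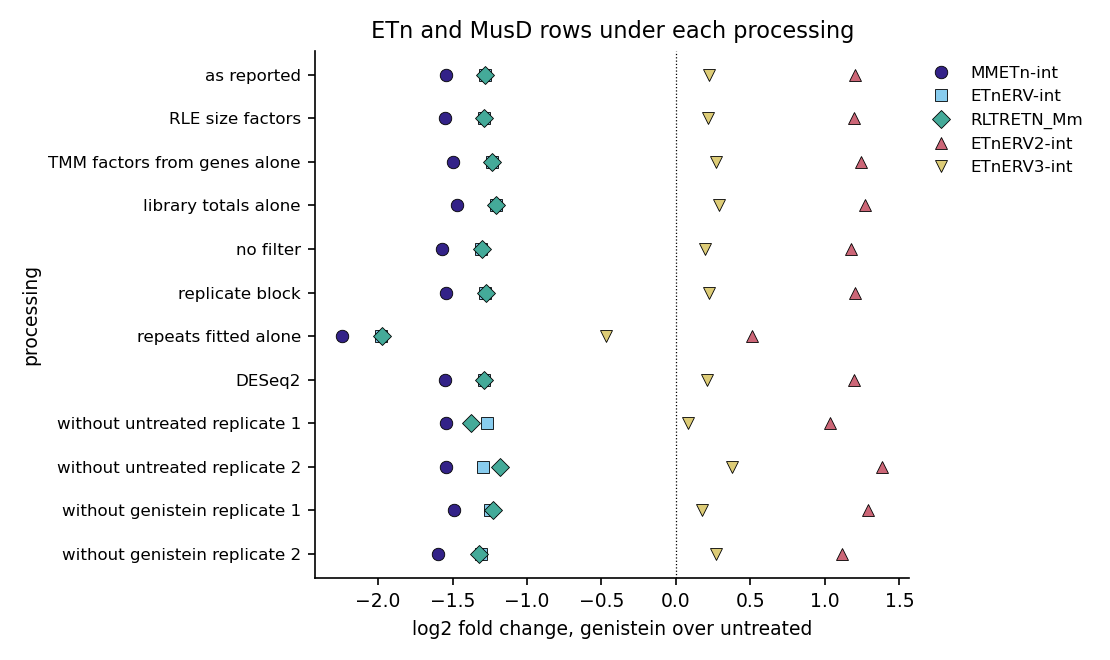
Log2 fold change (genistein over untreated) of each of the 5 ETn and MusD rows as reported and under 11 alternatives. With repeats fitted alone all 5 points shift to lower values and ETnERV3-int crosses 0, from 0.22 to -0.47, while the other settings hold ETnERV3-int between 0.08 and 0.37.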

How the data were processed

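Total RNA libraries of 2 untreated and 2 genistein-exposed MEF samples were depleted of ribosomal RNA and sequenced from paired ends. The authors trimmed reads with Trim Galore, aligned them to mm10 with STAR, keeping reads with up to 100 alignments, and counted them with TEtranscripts over Gencode genes and RepeatMasker subfamilies. The deposited values are raw counts, not normalised. Young elements with many near-identical copies can exceed the alignment limit, and such reads are lost. A uniquely aligned read over a gene exon is assigned to the gene before a repeat. For reads with several alignments the order is not given in the sources used here. The kit keeps strand, but the strand setting of the counter is not given in the sources used here, so overlapping and antisense genes are uncertain.

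The single row that names no gene or repeat (0.00208% to 0.00314% of counts) was left out. Symbols matched 47224 of 47937 gene identifiers, and coordinates are GENCODE on GRCm38, the assembly of mm10. Counts were analysed with edgeR 4.0.16 in R 4.3.3: filterByExpr by group kept 16240 genes and 1118 repeats, TMM factors (trimmed mean of M-values) scaled the library sizes, and groups were compared with the quasi-likelihood test and Benjamini-Hochberg adjustment over all 17358 kept rows. The SE is the log2 fold change divided by the square root of F. Sums were fitted as extra rows. An exact permutation test of 2 against 2 libraries cannot go below p = 0.333. The code was tested on simulated data.

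Named rows were all rows of the name rule; the 5 repeats and 5 genes nearest in pattern; the 3 internal ERVK rows with the most untreated reads and other ERVK rows past the thresholds; and 9 fixed host genes with up to 3 called genes per list and direction by fold change, with a mean over 100. The members and lists were chosen with earlier results of these data known. Alternatives were RLE size factors, TMM from genes alone, library totals, no filter, DESeq2 1.42.0, repeats fitted alone, a block on the replicate number, and each library left out in turn. Consensus sequences of the elements were not used here. The result of 1 listed host gene is not reported here.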

Additional observations from a re-analysis of the deposited data

Results flagged for a closer look

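The row that names no gene or repeat lay outside every comparison and was higher in both treated libraries, with 639 and 681 normalised counts in untreated and 926 and 837 in treated libraries, a log2 ratio of 0.42. Its identity was not analysed here.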

How the results depend on the processing

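With repeats fitted alone, the log2 fold changes were -2.24 for MMETn-int, -1.98 for ETnERV-int, -1.97 for RLTRETN_Mm, 0.51 for ETnERV2-int, -0.47 for ETnERV3-int and -2.09 for the sum of the 5 rows. This setting centres repeats near 0 by construction, and their median moved from 0.69 to -0.01. With library totals alone, MMETn-int was at -1.47, ETnERV-int at -1.21 and the sum at -1.32, and with TMM factors from genes alone ETnERV-int was at -1.24. Under both of these scalings 2 restriction genes fell in place of 4, without Samhd1 and Zc3hav1. Leaving out each library gave -1.60 to -1.49 for MMETn-int and -1.44 to -1.34 for the sum. The silencing list had 19 to 21 lower genes under the 10 alternatives run on it. Zfp932 turned to -0.0011 with no filter, far from any call. With the replicate block the sum was at -1.39 and no count of listed genes changed. The pairing check gave a correlation of -0.03 between the deviations of libraries with the same number (2 pairs). With 2 pairs it cannot tell whether the libraries were paired. With 2 libraries a group, and few reads in ETnERV2-int and ETnERV3-int, small differences are not detectable at this depth.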
